A study of Mus musculus with 9 samples.

Results

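The 9 genes described here encode subunits of Polycomb repressive complex 1 (PRC1), and they were taken from a fixed list of names (Ring1, Rnf2, Bmi1, Pcgf1, Pcgf2, Cbx2, Cbx7, Cbx8 and Phc1) out of 21883 protein-coding genes placed on the chromosomes used. Each gene was read within 1 kb of its start and over its gene body in 7 deposited peak lists. The lists came from ChIPmentation, in which a transposase inserts sequencing adapters into chromatin held on the antibody, of thymic cells from a MYCN-driven T cell lymphoma in C57BL/6J mice. The antibodies were against H3K4me3 and H3K27ac, marks of active promoters and of active chromatin, against the acetyltransferase p300, against the transcription factor N-MYC, against EZH2 and SUZ12, subunits of Polycomb repressive complex 2 (PRC2), and against H3K27me3, the mark that PRC2 deposits. All 7 libraries share this strain, tissue and tumour type. The promoter that drives MYCN, the age and number of the animals and the animal behind each library are not given in the sources used here. There were 9 samples in all, 1 for each of the 7 antibodies and 2 inputs, which were not used here.

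PRC1 adds ubiquitin to histone H2A and compacts chromatin, and it acts with PRC2 to keep genes silent. Every PRC1 complex holds a RING1 or RNF2 catalytic subunit joined to a PCGF protein. In canonical complexes a CBX protein binds H3K27me3 through its chromodomain and a PHC protein helps complexes to cluster, whereas variant complexes carry RYBP or YAF2 in place of CBX. BMI1 is known as a MYC-cooperating oncogene in lymphoid cells through its repression of the Ink4a/Arf locus.

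A start was a RefSeq transcript start on assembly GRCm38.p6. Starts were counted by gene. A gene with several listed starts counted once, and the lists of a combination could be met at different starts of that gene. For the overlap of peaks, both peaks had to reach the same start. For Pcgf1 and Cbx2, which had no listed start, both ends of the gene were read, and in each case all calls lay at the lower-coordinate end. The value given for a peak is the authors' fold enrichment, a linear ratio over background, and where several peaks of a list reached the window the strongest is given. With no replicate library there is no test and no p-value. Intervals are 95% Wilson intervals and cover counting error only. Depth is unknown, because the lists carry no read counts. A missing call means that no peak passed the authors' threshold. The T cell identity of the material was checked at 10 T cell marker genes, which all carried H3K4me3 and H3K27ac at the start. H3K27me3 was called at 1 of the 10, Bcl11b. Of 5 B cell, 5 myeloid and 4 thymic epithelial markers, 1 in each group carried H3K4me3 (Cd79a, Cebpa and Epcam), and 2, 3 and 2 carried H3K27ac. Over all protein-coding genes with a listed start the shares were 52.1% for H3K4me3 and 52.2% for H3K27ac. The H3K27ac counts of these 3 groups were thus near the share of all genes.

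All 9 PRC1 genes carried the active features H3K4me3, H3K27ac and p300 at the start, and all carried EZH2. H3K4me3, H3K27ac, p300 and EZH2 were each called at 9 of 9 starts, and N-MYC was called at 8 of 9, with Pcgf1 the exception. Among the 17491 protein-coding genes with a listed start, the shares called were 52.1% for H3K4me3, 52.2% for H3K27ac, 40.6% for p300, 34.0% for N-MYC and 46.0% for EZH2. The 4 features called at every PRC1 gene occurred together at 32.7% of starts (95% interval 32.0 to 33.4%). Among the 9118 starts with H3K4me3, H3K27ac was called at 93.4%, p300 at 77.5%, EZH2 at 74.0% and N-MYC at 64.8%, so these calls are common at starts with H3K4me3. With all lists shortened to the length of the shortest (9798 peaks), H3K27ac was called at 4 of the 9 genes (Ring1, Rnf2, Bmi1 and Pcgf2). In these shortened lists p300 and EZH2 were each called at 8 of the 9 genes, with Pcgf2 the exception.

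SUZ12 and H3K27me3, called the Polycomb features below, were also present at most of these starts. SUZ12 was called at 6 of 9 genes (Bmi1, Pcgf1, Pcgf2, Cbx2, Cbx7 and Cbx8), against 12.8% of all listed starts and 9.60% of those with H3K4me3. H3K27me3 was called at 6 of 9 (Bmi1, Pcgf1, Cbx2, Cbx7, Cbx8 and Phc1), against 24.3% and 14.5%. Both were called at 5 genes, against 12.7% and 9.41%, and at least 1 of them at 7 genes, against 24.4% and 14.7%. H3K4me3 occurred with SUZ12 at 6 genes, against 5.0% of all listed starts, and with SUZ12 or H3K27me3 at 7, against 7.65%. N-MYC occurred with SUZ12 at 5 genes, against 1.52%. Among the 5713 starts with H3K4me3, H3K27ac, p300 and EZH2, SUZ12 or H3K27me3 was called at 5.86%, compared with 7 of the 9 PRC1 genes. Bmi1, Cbx2, Cbx7 and Cbx8 carried peaks of all 7 lists, a combination found at 141 of 17491 starts (0.806%), or 1.55% of the starts with H3K4me3. Bmi1 alone kept all 7 with lists of equal length, Cbx7 alone with the summit required in the window, and Cbx2 and Cbx7 with windows of 0.5 kb. SUZ12 and H3K27me3 were called together at 3 genes with windows of 0.5 kb, at 1 with the summit required in the window, and at 3 of the 7 genes with a listed start. Ring1 and Rnf2 carried H3K4me3 with neither Polycomb feature, as 44.5% of starts did. The members were chosen with earlier results of these data known, so these counts describe the 9 genes and are not a test.

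**Figure D1:**
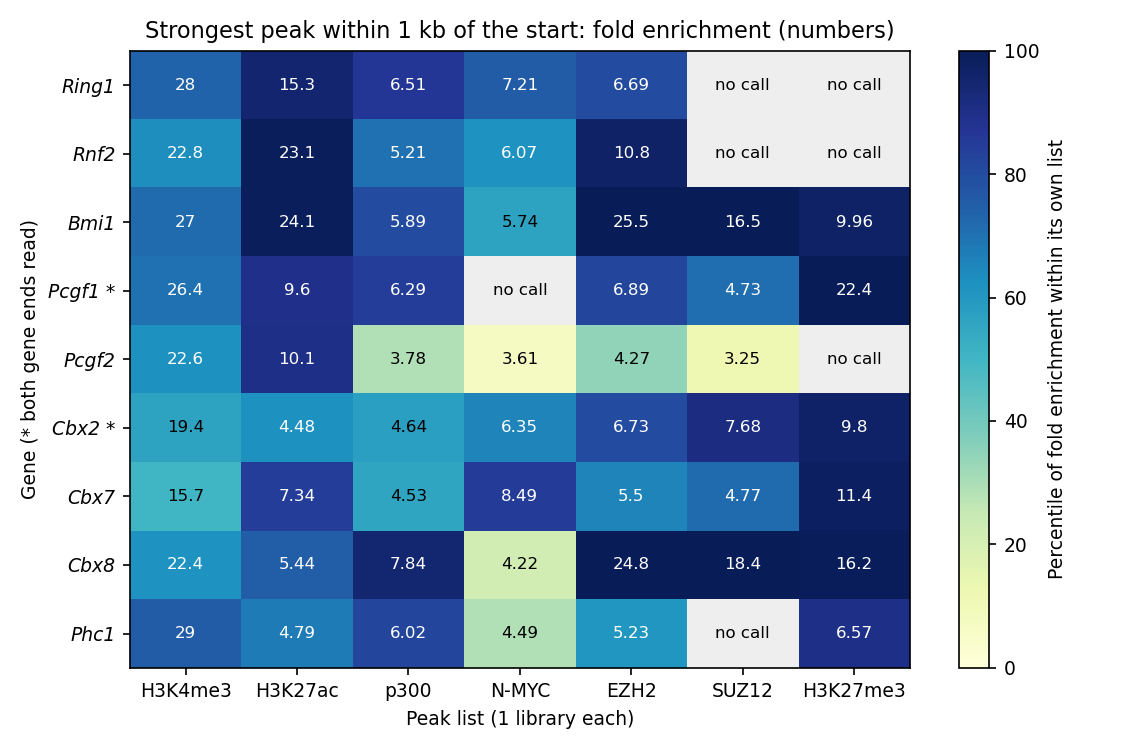
Fold enrichment of the strongest peak within 1 kb of the start for each of the 9 genes (rows) in each list (columns), printed as numbers and coloured by the percentile of that peak within its own list, with grey cells where no peak was called. Ring1 and Rnf2 have no SUZ12 or H3K27me3 call, and the highest EZH2 values are 25.5 at Bmi1 and 24.8 at Cbx8.

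The calls for H3K27me3 depended on where a peak was anchored. Its peaks reached the windows of 6 genes, but the summit lay within 1 kb at 1 of them, Cbx7, where it lay exactly 1000 bp upstream. A SUZ12 summit lay within the window at all 6 genes with a SUZ12 peak, although at Cbx8 it belonged to a second, weaker peak of 3.99. With windows of 0.5 kb, H3K27me3 was called at 3 genes. Of the calls near the limit of the window, the H3K27me3 peak of Phc1 ended at -945 bp from the start, and that of Pcgf2, which was not counted, ended at -1304 bp. In bulk chromatin the peaks of 2 lists at a start can come from different cells, and whether they did was not tested.

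Promoter sequence was examined for the 7 genes with a listed start, from the RefSeq promoters of GRCm38.p6. Of these, 5 are printed because they contrast an N-MYC-bound promoter without Polycomb features (Rnf2) with promoters that carried SUZ12. Each run holds the 250 bases before the start, 5′ to 3′ on the strand of the gene. Capitals mark CACGTG, the canonical E-box bound by MYC with MAX, and CACGCG or its reverse complement CGCGTG, a variant E-box, with overlaps between the motifs allowed. The positions are chr1:151500992-151501241 on the minus strand for Rnf2, chr2:18676768-18677017 on the plus strand for Bmi1, chr11:97699649-97699898 on the minus strand for Pcgf2, chr15:79932647-79932896 on the minus strand for Cbx7 and chr11:119040914-119041163 on the minus strand for Cbx8.
Rnf2: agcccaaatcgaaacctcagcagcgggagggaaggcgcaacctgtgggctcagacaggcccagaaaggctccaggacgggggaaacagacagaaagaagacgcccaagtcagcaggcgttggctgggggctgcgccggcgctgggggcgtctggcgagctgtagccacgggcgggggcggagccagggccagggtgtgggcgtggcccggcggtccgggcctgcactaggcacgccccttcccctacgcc
Bmi1: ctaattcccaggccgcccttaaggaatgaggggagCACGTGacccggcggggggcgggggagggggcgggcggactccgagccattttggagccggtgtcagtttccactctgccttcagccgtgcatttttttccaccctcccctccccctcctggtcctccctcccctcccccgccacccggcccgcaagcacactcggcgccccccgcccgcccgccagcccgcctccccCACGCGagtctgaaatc
Pcgf2: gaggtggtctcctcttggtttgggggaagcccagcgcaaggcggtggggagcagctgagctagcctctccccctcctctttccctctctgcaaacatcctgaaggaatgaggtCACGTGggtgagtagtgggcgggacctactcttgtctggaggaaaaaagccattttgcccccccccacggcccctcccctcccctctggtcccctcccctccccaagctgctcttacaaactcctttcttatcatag
Cbx7: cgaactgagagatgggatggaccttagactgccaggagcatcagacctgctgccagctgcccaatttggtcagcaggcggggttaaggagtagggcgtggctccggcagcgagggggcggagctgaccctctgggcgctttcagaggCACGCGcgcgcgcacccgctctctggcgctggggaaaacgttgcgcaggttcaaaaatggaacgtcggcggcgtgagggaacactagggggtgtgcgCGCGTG
Cbx8: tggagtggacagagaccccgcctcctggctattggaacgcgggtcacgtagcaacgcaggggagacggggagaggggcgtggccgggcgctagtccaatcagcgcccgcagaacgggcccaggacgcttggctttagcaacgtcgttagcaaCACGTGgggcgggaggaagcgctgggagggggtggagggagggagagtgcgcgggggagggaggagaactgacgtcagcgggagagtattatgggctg

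CACGTG was found in 3 of the 7 promoters (Bmi1, Pcgf2 and Cbx8), where it began 215, 137 and 98 bases before the start. It was found in 6.63% of the 21262 promoters of the same length that belong to protein-coding genes. The E-box lay 43 bp from the N-MYC summit at Bmi1 and 120 bp from it at Cbx8, inside the N-MYC peak in each case. At Pcgf2 it lay 468 bp from the N-MYC summit and outside the N-MYC peak, but inside the SUZ12 peak. The variant CACGCG was found in 3 of 7 (Ring1, Bmi1 and Cbx7), against 9.99% of promoters. It lay inside the N-MYC peak at all 3. At Ring1, a gene without Polycomb features whose promoter is not printed, it lay 64 bp from the N-MYC summit. Rnf2 and Phc1 held neither in this window, although N-MYC was called at both genes. Over the 300 bases from 250 before to 50 after the start, 5 of the 7 promoters held more CpG dinucleotides than the median promoter, which held 13. Ring1 held 37, Cbx7 held 33, Rnf2 held 30, Cbx8 held 24 and Bmi1 held 23. Pcgf2 held 10 and Phc1 held 9.

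Ring1 and Rnf2, the paralogous E3 ligase subunits, had the active features and EZH2 without SUZ12 or H3K27me3. Ring1 (chromosome 17, 34020792 to 34024680, minus strand) carried H3K4me3 of fold enrichment 28.0, H3K27ac of 15.3, p300 of 6.51, N-MYC of 7.21 and EZH2 of 6.69. Rnf2 (chromosome 1, 151469398 to 151500991, minus strand) carried H3K4me3 of 22.8, H3K27ac of 23.1, p300 of 5.21, N-MYC of 6.07 and EZH2 of 10.8. The EZH2 peak of Rnf2 ranked 537 of 18730 in its list, and it overlapped neither SUZ12 nor H3K27me3. At both genes the N-MYC summit lay within 131 bp of the start, 20 bp downstream at Ring1 and 131 bp downstream at Rnf2. No SUZ12 or H3K27me3 peak lay over either gene body. The same 5 calls without Polycomb features were found at 25.4% of listed starts, so this combination is common. The wide H3K4me3 and H3K27ac peaks of Ring1, of 4936 and 4385 bp, also reached the neighbouring H2-Ke6 gene, and the precursors of miR-219a-1 and miR-219c lay within 1 kb of its start and under peaks of all 5 lists called there, so these peaks cannot be assigned to Ring1 alone.

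The PCGF genes set the type of PRC1 complex, and Bmi1, whose protein is PCGF4, had stronger EZH2 and SUZ12 peaks within 1 kb of its start than Pcgf1 and Pcgf2. Bmi1 (chromosome 2, 18677018 to 18686629, plus strand) carried EZH2 of 25.5, which ranked 7 of 18730 EZH2 peaks, SUZ12 of 16.5, which ranked 31 of 11100, and H3K27me3 of 9.96. The same window carried H3K4me3 of 27, H3K27ac of 24.1, p300 of 5.89 and N-MYC of 5.74. Its H3K27ac peak ranked 737 of 87072, so the start combined strong values of an activating and a Polycomb feature. The features were offset along the gene. The N-MYC summit lay 256 bp upstream of the start and the H3K4me3 and H3K27ac summits lay 178 and 127 bp downstream. The summits of EZH2, SUZ12 and H3K27me3 followed at 885, 981 and 1056 bp downstream, inside the gene. H3K27ac and H3K27me3 peaks shared 799 bp there. The end of Commd3 lay 787 bp from the Bmi1 start, and the nearest listed start of Commd3 was 4583 bp away. H3K4me3, H3K27ac, SUZ12, EZH2 and p300 peaks of the window reached Commd3, so these peaks cannot be assigned to Bmi1 alone. For EZH2 and p300 they were weaker peaks of the window, of 4.12 and 3.78.

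Pcgf2, also called Mel18 and a close relative of Bmi1, stood at the other end of the range. Pcgf2 (chromosome 11, 97688821 to 97702434, minus strand) carried H3K4me3 of 22.6, H3K27ac of 10.1, p300 of 3.78, N-MYC of 3.61, EZH2 of 4.27 and SUZ12 of 3.25. Its SUZ12 peak was 205 bp wide and ranked 9681 of 11100, and its N-MYC peak ranked 9013 of 9798, so both were among the weakest of their lists. The SUZ12 call of Pcgf2 was lost at a fold enrichment of at least 4 and at a q-value of at most 1e-05, which left SUZ12 at 5 of 9 genes. At a fold enrichment of at least 4 Pcgf2 also lost p300 and N-MYC. With lists of equal length it kept H3K4me3, H3K27ac and N-MYC alone. An H3K27me3 peak of 4.26 lay upstream of the window. The listed start of Pcgf2 lies inside its annotated span. A second group of active peaks lay further upstream, with H3K4me3 of 17.7, H3K27ac of 11.6, p300 of 6.51 and N-MYC of 6.88. Of these, the H3K4me3 peak reached into the upper end of the span, and the others lay beyond it. The 6 calls at Pcgf2, with SUZ12 and without H3K27me3, were found at 11 of 17491 starts (0.0629%). This combination depended on the window. With windows of 2 kb, or with the whole H3K4me3 peak read, Pcgf2 carried all 7 lists.

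Pcgf1, which forms the variant complex recruited to unmethylated CpG islands with KDM2B, was the gene without N-MYC. At its lower-coordinate end (chromosome 6, gene span 83077552 to 83080855) it carried H3K4me3 of 26.4, H3K27ac of 9.60, p300 of 6.29, EZH2 of 6.89, SUZ12 of 4.73 and H3K27me3 of 22.4. That H3K27me3 peak was 10.3 kb wide, ranked 60 of 123056, ended 8 bp before the gene and had its summit 8116 bp outside it, over a region that also holds Tlx2 and Dqx1. A SUZ12 peak of 20.1, which ranked 3 of 11100, lay 1.99 kb from the gene over Tlx2 and Dqx1 and did not reach the window. On the other side a further SUZ12 peak of 12.8 began 3.11 kb from the gene and covered Lbx2. Tlx2 and Lbx2 encode homeobox factors. Pcgf1 thus lay between strong Polycomb peaks whose summits were outside its span, and H3K27ac, which began 121 bp inside the gene, was separated from H3K27me3 by 128 bp.

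The CBX genes encode the readers of H3K27me3, and Cbx2, Cbx7 and Cbx8 carried peaks of all 7 lists. Cbx8 (chromosome 11, 119036303 to 119040913, minus strand) had EZH2 of 24.8, which ranked 8 of 18730, SUZ12 of 18.4, which ranked 10 of 11100, and H3K27me3 of 16.2. It also had H3K4me3 of 22.4, H3K27ac of 5.44, p300 of 7.84 and N-MYC of 4.22. The EZH2, SUZ12 and H3K27me3 peaks were 12.9, 15.8 and 11.9 kb wide and ran upstream from the start, with summits 2152, 2228 and 4577 bp away. The active summits stayed near the start, with p300 at 161 bp and N-MYC at 215 bp upstream and H3K4me3 at 279 bp and H3K27ac at 463 bp downstream. The H3K27ac call of Cbx8 was moderate for its list, at rank 21555 of 87072, and p300 was high, at rank 852 of 15646.

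Cbx2 (chromosome 11, 119023019 to 119031275) lies beside Cbx8. Its lower-coordinate end carried H3K4me3 of 19.4, H3K27ac of 4.48, p300 of 4.64, N-MYC of 6.35, EZH2 of 6.73, SUZ12 of 7.68 and H3K27me3 of 9.80. The SUZ12 and H3K27me3 peaks lay outside the gene and ended at -43 and -177 bp from that end. H3K27ac began 109 bp inside the gene and touched neither of them. The long noncoding RNA gene Gm35829 has a listed start 820 bp away and overlapped peaks of all 7 lists there, so these cannot be assigned to Cbx2 alone. No SUZ12 or H3K27me3 peak was called over the body of Cbx2.

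Cbx7 had a comparable arrangement at a listed start within its annotated span (chromosome 15, 79915804 to 79971143, minus strand). It carried H3K4me3 of 15.7, the lowest of the 9 genes, H3K27ac of 7.34, p300 of 4.53, N-MYC of 8.49, EZH2 of 5.50, SUZ12 of 4.77 and H3K27me3 of 11.4. N-MYC at Cbx7 was the highest of the 8 genes with a call and ranked 1459 of 9798. The N-MYC, H3K4me3 and H3K27ac summits lay 62, 120 and 174 bp downstream of the start, whereas EZH2, SUZ12 and H3K27me3 summits lay 513, 853 and 1000 bp upstream. H3K27ac was 44 bp away from SUZ12 and 163 bp away from H3K27me3. Over the 55.3 kb span of Cbx7, the longest of the 9 genes, H3K27ac gave 19 peaks that covered 28.4% of it. The strongest outside the start window had a fold enrichment of 12.1. Over the other 8 genes, of 3.3 to 31.6 kb, 1 or 2 H3K27ac peaks covered from 1.92% (Phc1) to 51.7% (Pcgf1). H3K27me3 gave 9 peaks over the span of Cbx7 that covered 11.1%. When the ends of the annotated span were read in place of the listed start, Cbx7 kept H3K27ac alone.

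Phc1, which encodes a Polyhomeotic protein with a SAM domain that polymerises, carried H3K27me3 at the edge of the window and no SUZ12. Phc1 (chromosome 6, 122317731 to 122340227, minus strand) had H3K4me3 of 29.0, the highest of the 9 genes, with H3K27ac of 4.79, p300 of 6.02, N-MYC of 4.49, EZH2 of 5.23 and H3K27me3 of 6.57. Its EZH2 peak lay downstream of the start, from 119 to 1075 bp, and was separated from that H3K27me3 peak by 1063 bp. This upstream H3K27me3 peak had its summit 2209 bp away and lay 403 bp from the H3K4me3 peak. A stronger H3K27me3 peak of 7.91 lay further upstream, 2.65 kb from the gene and outside the window. Over the gene body there were 2 weaker H3K27me3 peaks, of 3.40 and 4.26, which lay outside the window. The weaker of them began 1148 bp downstream and overlapped the H3K4me3 peak, which ran to 1820 bp. Phc1 thus had H3K27me3 on both sides of its start.

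**Figure D2:**
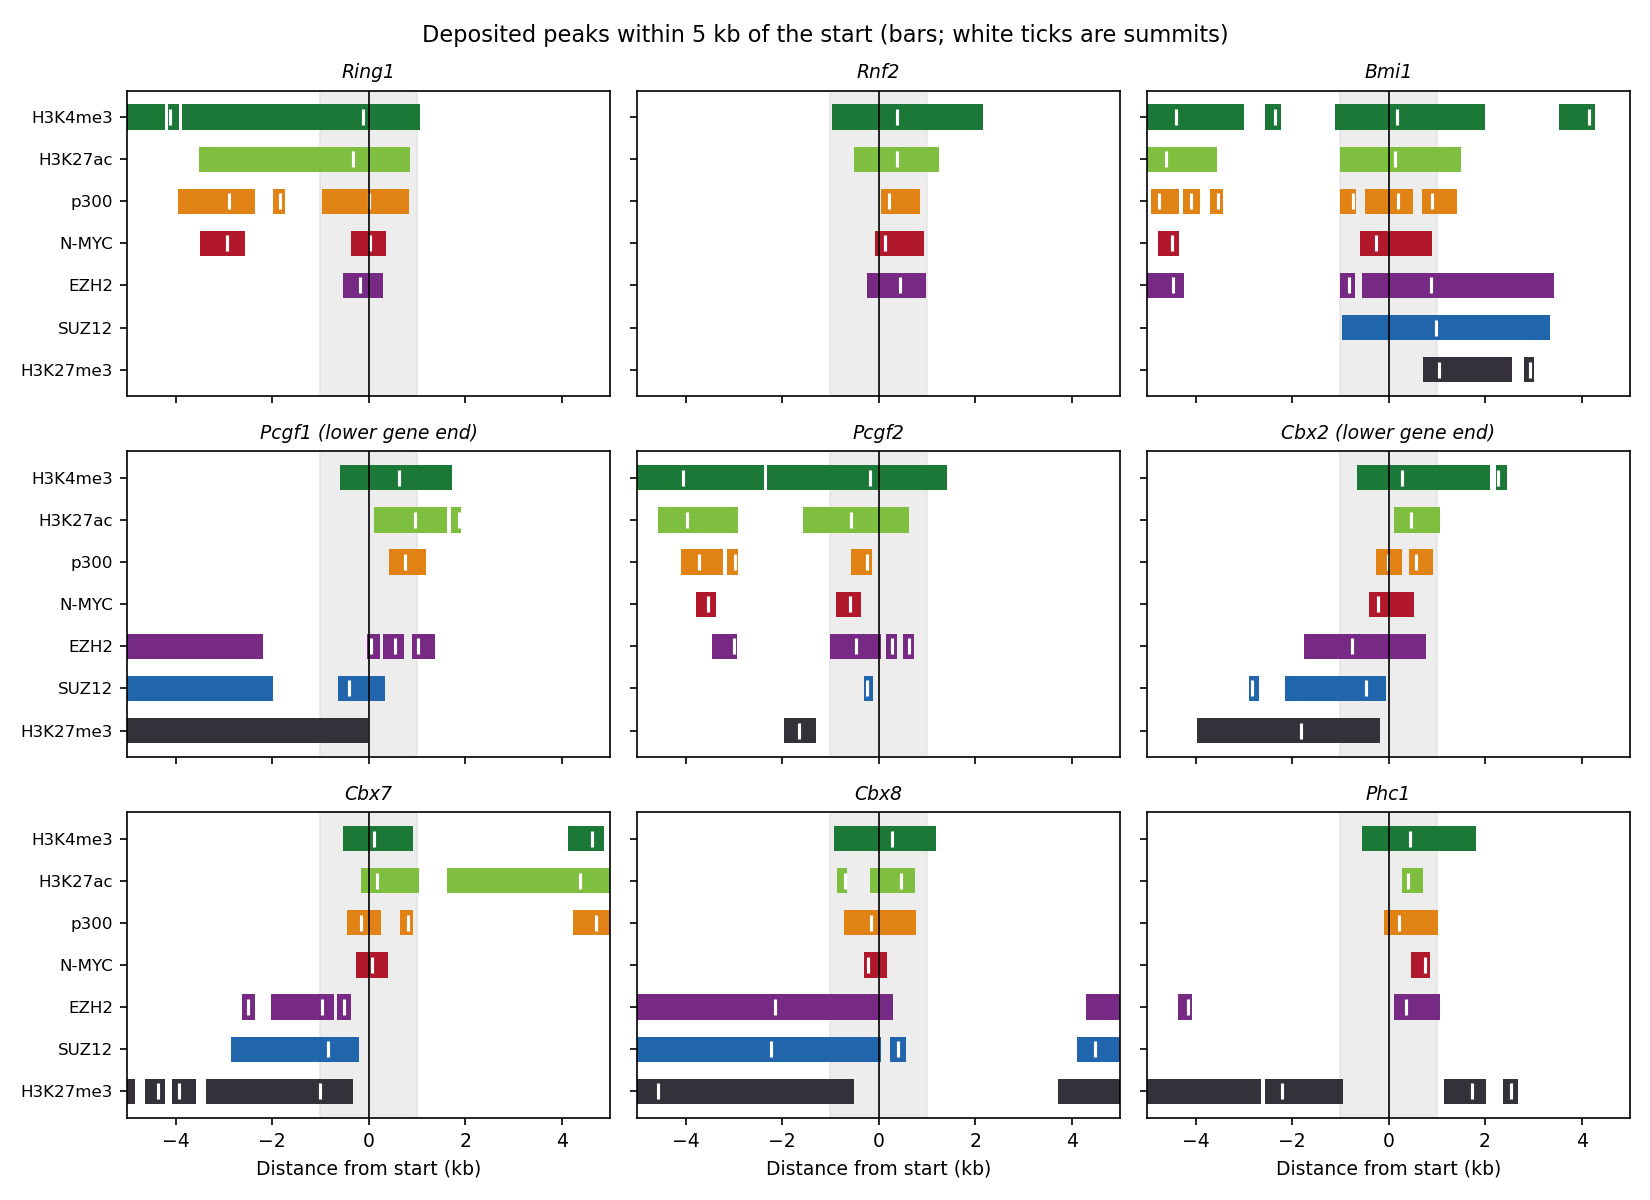
Deposited peaks of the 7 lists (rows in each panel) from 5 kb before to 5 kb after the start of each gene, in the direction of transcription, or in chromosome direction from the lower-coordinate gene end for Pcgf1 and Cbx2, with summits as white ticks and the window of 1 kb on either side in grey. SUZ12 and H3K27me3 are absent at Ring1 and Rnf2, and the summits of their strongest peaks lie downstream of the start at Bmi1 and upstream or outside the gene at Pcgf1, Cbx2, Cbx7 and Cbx8.

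Overlap between peaks was compared among the peaks that reached the window of 1 kb. Polycomb peaks overlapped H3K4me3 at most genes with both, but H3K27ac and H3K27me3 were mostly apart. H3K27ac and H3K27me3 were both called at 6 genes, and their peaks overlapped at 2 of them (Bmi1 by 799 bp and Cbx8 by 219 bp) and were apart at 4, by 128 bp at Pcgf1, 163 bp at Cbx7, 285 bp at Cbx2 and, to the upstream peak, 1233 bp at Phc1. The overlap at Cbx8 came from a second, weak H3K27ac peak of 3.18. At 840 listed starts with both, the peaks overlapped in 72.7% (69.6 to 75.6%). N-MYC and H3K27me3 peaks overlapped at 2 of 5 genes, against 39.1% of 422 starts. N-MYC and SUZ12 peaks overlapped at 4 of 5 genes, against 70.7% of 246 starts, by 52 bp at Cbx7, 346 bp at Cbx8, 373 bp at Cbx2 and 1493 bp at Bmi1. H3K4me3 and H3K27me3 peaks overlapped at 5 of 6 genes, by 202 to 1287 bp, with Phc1 the exception among peaks in the window, against 89.4% of 1271 starts. p300 peaks overlapped H3K27me3 at 4 of 6 genes, against 42.1%, and SUZ12 at 5 of 6, against 76.5%. SUZ12 peaks overlapped H3K4me3 at 6 of 6 genes, against 96.2%, H3K27ac at 4 of 6, against 88.8%, and EZH2 at 6 of 6, against 96.3%. EZH2 and H3K27me3 peaks overlapped at 5 of 6, against 93.5%, again without Phc1. The overlaps of H3K4me3 and EZH2 with the Polycomb features were thus near their background.

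EZH2 lay with Polycomb features at some of these starts and without them at others. The windows held 15 EZH2 peaks, of which 9, at 6 genes, touched a SUZ12 or H3K27me3 peak and 6, at 5 genes, touched neither. The 6 peaks without Polycomb features overlapped H3K4me3 and H3K27ac in every case and had fold enrichments of 4.04 and 4.23 at Pcgf2, 5.23 at Phc1, 5.57 at Pcgf1, 6.69 at Ring1 and 10.8 at Rnf2. Over all listed starts with H3K4me3, EZH2 and neither Polycomb feature, the strongest EZH2 peak had a median of 5.69 and quartiles of 4.64 and 7.04, so Rnf2 lay above the upper quartile and Ring1 within the quartiles. Over starts with H3K4me3, EZH2 and SUZ12 the median was 6.62 and the quartiles were 5.02 and 8.85. Bmi1 at 25.5 and Cbx8 at 24.8 lay above the upper of these, Cbx2 at 6.73, Pcgf1 at 6.89 and Cbx7 at 5.50 lay between them, and Pcgf2 at 4.27 lay below the lower.

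The medians of H3K4me3 and H3K27ac lay below those of all called starts. H3K4me3 of the 9 genes had a median of 22.8 and ran from 15.7 to 29.0, against a median of 26.6 at the 9118 starts with a call. H3K27ac had a median of 9.60, against 12.4, and 3 genes (Ring1, Rnf2 and Bmi1) were above that value. The medians of p300 were 5.89 and 5.40, and those of N-MYC were 5.91 and 6.01. For H3K27me3 the 6 genes had a median of 10.7, against 9.12, and for SUZ12 the medians were 6.22 and 5.71.

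Over the gene bodies, H3K4me3, H3K27ac, p300 and EZH2 were called at 9 of 9 genes and N-MYC at 8, against 55.0, 58.5, 43.2, 46.9 and 36.2% of genes. SUZ12 was called over 5 bodies (Bmi1, Pcgf1, Pcgf2, Cbx7 and Cbx8), against 14.0%, and H3K27me3 over 5 (Bmi1, Pcgf2, Cbx7, Cbx8 and Phc1), against 29.0%. At all 5 genes the SUZ12 call came from a peak that reached the start window. For H3K27me3 this held at Bmi1 and Cbx7, while the body peaks of Pcgf2, Cbx8 and Phc1 lay outside the window. Without the first 1 kb after the start, p300 remained called over 5 bodies and N-MYC over 2. The 2 were Pcgf2 and Cbx7, where the part of the window upstream of the listed start lies inside the span. No N-MYC peak over a body lay wholly outside the start window, and p300 peaks did so at Cbx7 alone. SUZ12 covered 34.8% of the Bmi1 body and 19.2% of the Cbx8 body, where it was called at the start and again at the far end, with a fold enrichment of 5.22 there.

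Cbx2 and Cbx8 lie side by side on chromosome 11, and the 20 kb upstream of the Cbx8 start held the widest EZH2, SUZ12 and H3K27me3 peaks that reached the window of any of the 9 genes. Peaks of SUZ12 covered 18.5 kb (92.4%) of this interval, those of EZH2 18.3 kb (91.4%) and those of H3K27me3 17.9 kb (89.3%). A further SUZ12 peak of 5.22 lay at the end of Cbx8 that faces Cbx2, from 119034141 to 119036800, together with EZH2 of 6.59 and H3K27me3 of 11.7. Cbx2 and Cbx8 are neighbours, so they are not independent examples.

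**Figure D3:**
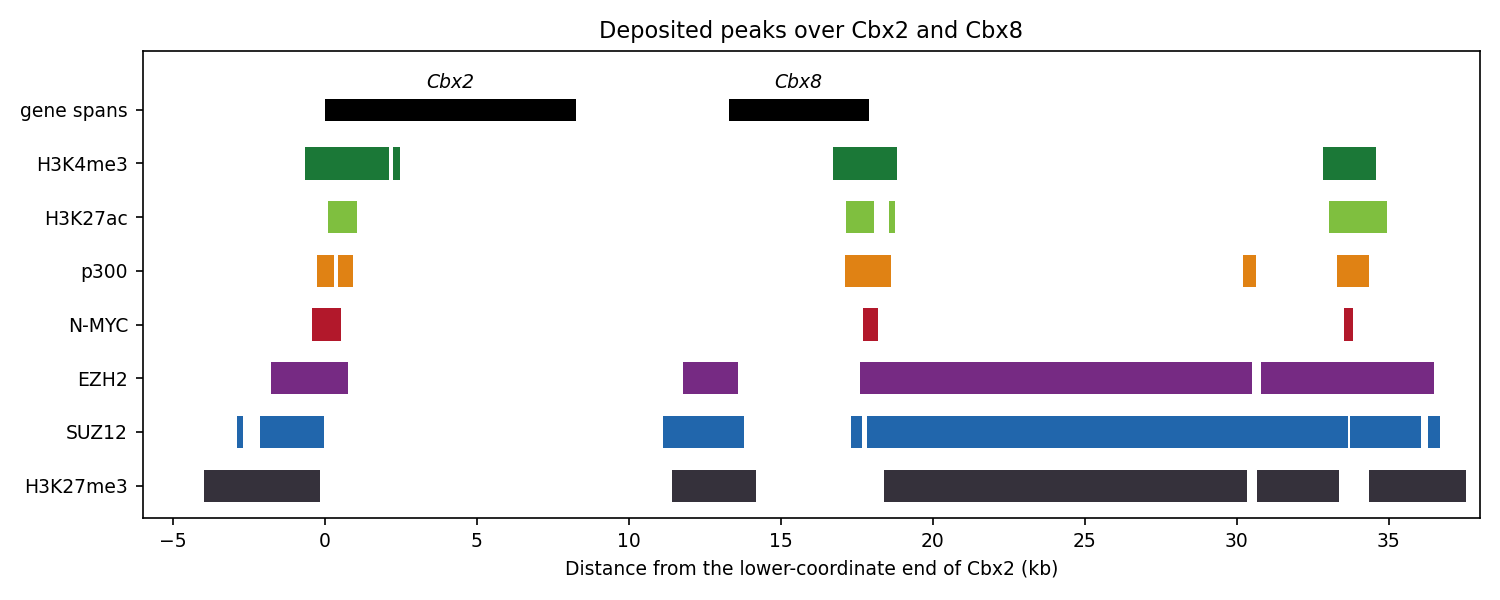
Deposited peaks of the 7 lists (rows) over Cbx2, Cbx8 and the region upstream of Cbx8, as distance in kb from the lower-coordinate end of Cbx2, with gene spans as black bars. The SUZ12 peak of 15.8 kb, the EZH2 peak of 12.9 kb and the H3K27me3 peak of 11.9 kb begin within 1 kb of the start of Cbx8, and Cbx2 and Cbx8 each carry H3K4me3, H3K27ac, p300 and N-MYC.

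A list of 22 further genes, called other PRC1 genes here, was read in the same way. Of these, 3 (Rybp, Yaf2 and Auts2) had no listed start and were read at both ends. The list held PRC1 subunits and associated factors. It also held Bap1, Asxl1 and Usp16, which act in removing ubiquitin from H2A and are not PRC1 subunits. Neither SUZ12 nor H3K27me3 was called at Bap1, Asxl1 or Usp16. H3K4me3 was called at 20 of 22, p300 and EZH2 at 17 each and N-MYC at 16. The shares of all listed starts were 52.1% for H3K4me3, 40.6% for p300, 46.0% for EZH2 and 34.0% for N-MYC. SUZ12 together with H3K27me3 was called at 4 of 22 (18.2%), near the 12.7% of all listed starts. The 4 were Phc2, a Polyhomeotic paralogue, Rybp, a subunit of variant complexes, Scmh1, a Sex comb on midleg homologue, and Auts2, which joins PCGF3 and PCGF5 complexes. SUZ12 fold enrichment was 4.24 at Phc2, 3.05 at Rybp, 9.03 at Scmh1 and 3.99 at Auts2. Phc2 and Rybp carried all 7 lists, whereas Auts2 carried EZH2, SUZ12 and H3K27me3 alone and Scmh1 lacked N-MYC and p300. Scml2 had no peak of any list within its window.

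By protein family, SUZ12 and H3K27me3 were called together at 3 of the 4 Cbx genes read here, with Cbx6 the exception. Of these, Cbx2 and Cbx8 are neighbours and not independent. Both features were called at 2 of 6 Pcgf genes (Bmi1 and Pcgf1), at 1 of 3 Phc genes (Phc2) and at neither Ring1 nor Rnf2. Over all listed starts the share with both was 12.7%. For the 12 PRC2 genes, read for comparison, H3K4me3, H3K27ac and p300 were called at 12, N-MYC at 11, EZH2 at 10, H3K27me3 at 2 (Ezh1 and Epop) and SUZ12 at 1 (Epop). Over all listed starts the shares were 52.1% for H3K4me3, 52.2% for H3K27ac, 40.6% for p300 and 34.0% for N-MYC. They were 46.0% for EZH2, 24.3% for H3K27me3 and 12.8% for SUZ12. The difference between these lists of genes was not tested.

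**Figure D4:**
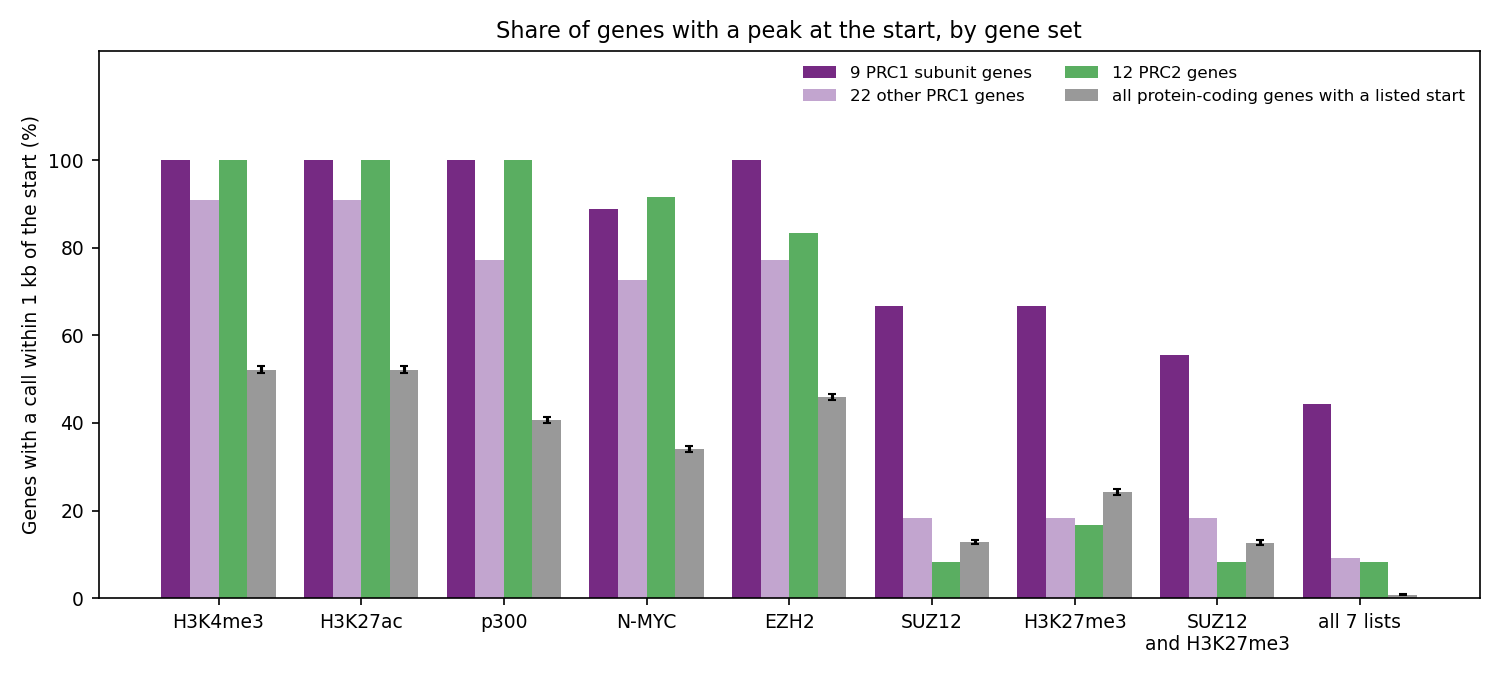
Share of genes with a call within 1 kb of the start, in percent, for the 9 PRC1 subunit genes, 22 other PRC1 genes, 12 PRC2 genes and the 17491 protein-coding genes with a listed start, whose error bars are 95% Wilson intervals. SUZ12 and H3K27me3 occur together at 55.6% of the 9 genes, 18.2% of the other PRC1 genes, 8.33% of the PRC2 genes and 12.7% of all starts. The list of other PRC1 genes includes Bap1, Asxl1 and Usp16, which are not PRC1 subunits.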

How the data were processed

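The data were 7 peak lists, with 1 library per antibody. Per the submitters' processing notes, FastQC, Bowtie2, SAMtools, MACS2 and deepTools were used with builds mm10 and GRCm38. Versions, filters, the control of each list and any pooling are not given in the sources used here. Each deposited line gives a peak's position, summit, fold enrichment (a linear ratio) and −log10 p-value and q-value. The smallest deposited −log10 q was 2.00 to 2.08. The deposited score column was computed from the q-value column (its −log10 multiplied by 10, cut to a whole number) and entered no result.

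Gene spans and starts came from RefSeq tables of GRCm38.p6. A gene had its listed starts, of which any could be met, or both ends where none was listed. A peak counted when it overlapped the window of 1 kb on either side, or the gene body, by at least 1 bp. Peaks on 21 chromosomes were used. Overlap counts were tested on simulated data. The background is the 17491 protein-coding genes with a listed start. The named genes are all 9 members, the other PRC1 genes that carried a Polycomb feature or lacked H3K4me3, neighbours of members, and PRC2 genes as counts with exceptions named. Cbx6, Lbx2, Gm46725, Spag6, Bap1, Asxl1 and Usp16 fell outside this rule and were named after their values were seen. A gene of the PRC1 list is not reported here. Members and lists were chosen with earlier results of these data known. Alternatives changed the window, the overlap, the peak threshold, the list length and the position read. Python 3.11.15, pandas 2.3.3 and scipy 1.17.1 were used.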

Additional observations from a re-analysis of the deposited data

How the results depend on the processing

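Of the alternative values for counts and shares, 192 stayed within 1.5 times the reported value and 19 did not. The causes were not tested unless the construction shows them. With windows of 0.5 kb, 3 genes had H3K27me3, 3 had it with SUZ12 and 2 had all 7 lists. With the summit required in the window, 1 gene each met these 3 conditions, and the shares of all starts fell to 7.2% for SUZ12 with H3K27me3 and 0.326% for all 7 lists. At a fold enrichment of at least 4, all 7 lists met at 0.417% of starts. With lists of equal length (9798 peaks each), 4 genes had H3K27ac at the start and 5 over the body, 4 had H3K4me3 without Polycomb features, 1 had all 7 lists and 3 had H3K27me3 over the body, with 15.8% of starts for H3K27me3 and 0.217% for all 7 lists. Counting only the 7 genes with a listed start, chosen after seeing the data, left 3 with SUZ12 and H3K27me3. Without the first 1 kb after the start, p300 was called over the body at 5 and N-MYC at 2 genes. No N-MYC peak over a body lay wholly outside the start window. The calls at Ring1 and Rnf2 were 5 lists under every alternative run. The count of genes with all 7 lists and its alternatives were added after seeing the data. No paired analysis was possible because each antibody has 1 library. Unknown depth limits every missing call.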

Other observations

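Within the Polycomb peaks upstream of Cbx8 lay a site with active features and no gene in the RefSeq table. On chromosome 11 from 119055851 to 119057600 an H3K4me3 peak had a fold enrichment of 13.7, and H3K27ac (15.2), p300 (4.30) and N-MYC (2.99) peaks overlapped it. SUZ12 peaks of 18.4 and 6.14, from 119040868 to 119056670 and from 119056752 to 119059072, covered it except for a short gap between them. An EZH2 peak of 9.49 covered all of it. H3K27me3 had a break there, since its peaks ended at 119056391 and resumed at 119057359. The N-MYC peak was among the weakest of its list, at percentile 1.65, and the H3K27ac peak was among the strong ones, at percentile 95.2. Downstream of Bmi1, Polycomb peaks over Gm46725 resumed with H3K27me3 of 17.2 at 1.66 kb and SUZ12 of 12.4 at 1.75 kb beyond the gene. They continued over Spag6 with SUZ12 of 10.9, EZH2 of 16.3 and H3K27me3 of 20.7.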
